A study of Rattus norvegicus with 35 samples.

Results

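Carboxylesterases are serine hydrolases of the liver endoplasmic reticulum that split esters, amides and thioesters in drugs, pesticides and lipids. Enzymes of the Ces1 family favour a large acyl group on a small alcohol, and enzymes of the Ces2 family a small acyl group on a large alcohol. Aadac, arylacetamide deacetylase, is a separate membrane-bound esterase of the same compartment that removes acyl groups from arylamide drugs. In rodent liver, transcripts of some carboxylesterases are raised by ligands of the xenobiotic receptors CAR (Nr1i3) and PXR (Nr1i2), which bind DNA with RXR at paired half-sites such as AGTTCA or the related letters AGGTCA.

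The members were all probe sets of the array whose platform gene symbol begins with Ces and a digit, plus Aadac. This gave 8 of the 31042 probe sets tested, standing for 7 entries: Ces2c, Ces1c, Ces1d, Ces1e, Ces5a, Aadac and 1 probe set that the annotation assigns to both Ces1f and Cesl1. That last probe set is called the Ces1f/Cesl1 probe set, since its signal cannot be given to either gene alone. Ces1c had 2 probe sets, and the one with the higher mean is the main value. No probe set carried the symbol Ces2a, which was not analysed here.

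In the study, Wistar Han IGS rats were fed diets with triazole fungicides (exposure began on gestation day 6 and lasted to postnatal day 92), and liver RNA of single animals was measured on Affymetrix rat arrays. Triazoles inhibit the fungal counterpart of Cyp51 and can induce drug-metabolising enzymes in the liver. Values were used for triadimefon at 1800 ppm (n = 4) and 500 ppm (n = 5), propiconazole at 2500 ppm (n = 4) and 500 ppm (n = 3), myclobutanil at 2000 ppm (n = 4) and 500 ppm (n = 5), and controls at 0 ppm (n = 7). Each array holds 1 animal, and p-values therefore refer to differences among animals; the labels used here give neither their sex nor their litter. Each value is a deposited score per probe set whose scale, log base and centring are not stated, so differences are given in score units and no fold change is derived from them. Probe sets differ in affinity, so a percentile of the mean score only describes roughly where a score stands, and no level is compared between genes.

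The labelled tissue was checked, within that limit, because the extraction protocol names testis while the titles and the labelling protocol name liver. Of 12 hepatocyte markers, 11 were measured, and 10 of them had mean scores at or above percentile 99.66 of all probe sets, with albumin at the top (the other, Tat, stood at percentile 95.41). Of 10 measured testis markers, 9 had mean scores at or below percentile 70.87. Prm1, a protamine of sperm, stood at percentile 87.76 and ran from -0.329 to 3.15 between arrays. Others also varied between arrays, among them Tnp1 (-0.343 to 1.44), Odf1 (-0.142 to 1.34) and Smcp (-0.137 to 1.14). The summed score of the 10 ran from -1.64 to 8.89 over all arrays (-1.64 to 7.52 at triadimefon 1800 ppm, -1.49 to 4.02 in controls). RNA quality was read from control probes of GAPDH and β-actin, by subtracting the 5′ score of each transcript from its 3′ score and taking the mean. This 3′–5′ difference ran from 1.16 to 1.86 at triadimefon 1800 ppm, from 0.469 to 0.577 at triadimefon 500 ppm and from 0.5003 to 2.12 in controls. For GAPDH alone it exceeded 0.9 on 9 arrays, which were triadimefon 1800 ppm replicates 2 to 4, myclobutanil 500 ppm replicates 1 and 5, and controls 4 to 7. The animals' numbers in the titles also fall into a series above 3000 (triadimefon 1800 ppm replicates 2 to 4 and controls 5 to 7) and one below it, and what the numbers stand for is not given.

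The start regions of the members the results turn on are shown because Ces2c lies apart from the Ces1 genes both in the genome and in its values. In the rat gene table, Ces2c lies on chromosome 1 between the pseudogenes Ces2c-ps1 and Ces2e-ps1, Aadac lies on chromosome 2 beside Aadacl2, and Ces1f, Ces1e, Ces1d, Ces1c and Ces1a follow one another on chromosome 19. The windows below run from 250 bases before to 50 bases after the annotated start on the plus strand (RefSeq, assembly GRCr8), at chr1:270376951-270377250 for Ces2c, chr19:30046244-30046543 for Ces1d and chr19:30099197-30099496 for Ces1c. Capitals mark each match on either strand to AGTTCA, to the related AGGTCA or to CCAAT; no matches overlap.
Ces2c: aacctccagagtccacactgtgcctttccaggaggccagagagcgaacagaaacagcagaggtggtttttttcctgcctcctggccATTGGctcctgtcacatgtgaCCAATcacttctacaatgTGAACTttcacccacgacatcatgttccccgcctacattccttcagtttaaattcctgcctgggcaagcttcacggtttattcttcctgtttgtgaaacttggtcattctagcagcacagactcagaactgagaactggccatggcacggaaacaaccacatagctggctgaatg
Ces1d: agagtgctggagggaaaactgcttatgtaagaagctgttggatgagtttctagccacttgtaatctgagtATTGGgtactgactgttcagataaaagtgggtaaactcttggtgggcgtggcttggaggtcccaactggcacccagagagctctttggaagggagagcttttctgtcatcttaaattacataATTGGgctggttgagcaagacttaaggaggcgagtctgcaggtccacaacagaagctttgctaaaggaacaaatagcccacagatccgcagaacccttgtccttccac
Ces1c: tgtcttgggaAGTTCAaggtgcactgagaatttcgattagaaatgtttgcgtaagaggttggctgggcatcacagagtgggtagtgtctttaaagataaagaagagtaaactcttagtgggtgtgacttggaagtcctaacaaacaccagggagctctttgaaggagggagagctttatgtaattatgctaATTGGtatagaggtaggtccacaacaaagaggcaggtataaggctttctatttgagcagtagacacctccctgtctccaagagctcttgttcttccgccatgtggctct
The Ces2c window holds AGTTCA once, on the minus strand at position 126, and CCAAT, the box bound by NF-Y, at positions 87 (minus strand) and 108 (plus strand). Ces1d has CCAAT at positions 71 and 193 and no AGTTCA. Ces1c has AGTTCA at position 11 and CCAAT at position 192. AGTTCA also stands once in the windows of Aadac (position 52), Ces1e (position 259) and Ces5a (position 133), so that it does not set Ces2c apart. Over all 33469 promoter windows of the same length, AGTTCA was found in 14.47%, AGGTCA in 16.18% and CCAAT in 37.49%. AGGTCA was found in none of the 7 windows of Ces2c, Aadac, Ces1c, Ces1d, Ces1e, Ces1f and Ces5a. Among the same windows, GCGTG, the core of the site bound by Ahr, stood in that of Ces1d alone (29.7% of all windows), and TGACNNNGC, the site bound by Nfe2l2, in none (12.06% of all). Aligned over their full length, the Ces2c window was 74.92% identical to that of Ces2b and 73.27% to that of Ces2, against 46.93% to that of Ces1d and 46.35% to that of Ces1c. Close relatives and pseudogenes of Ces2c could share its probes, and how much they add to its signal was not tested.

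Ces2c rose at the high level of triadimefon and of propiconazole, and its difference from controls was larger in size than that of any other member in 5 of the 6 treated groups (at myclobutanil 500 ppm, Ces1d had the larger one). The scores of Ces2c at triadimefon 1800 ppm were 3.35, 2.79, 2.72 and 2.83, against control scores of 1.23, 1.18, 1.26, 1.17, 0.936, 1.40 and 1.04. Every animal at this level lay above every control, as was so for 1.18% of all probe sets. The means were 2.92 ± 0.288 at triadimefon 1800 ppm (SD, n = 4) and 1.17 ± 0.150 in controls (SD, n = 7). Ces2c thus rose by 1.75 ± 0.164 (SE; 95% interval 1.41 to 2.08), with an adjusted p of 3.41e-07 in limma's moderated test over all probe sets. Among the 31042 probe sets this was the rise of rank 4 and the p of rank 3. Liver RNA is a bulk measure, so more cells of a type and more transcript per cell cannot be told apart here.

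**Figure D1:**
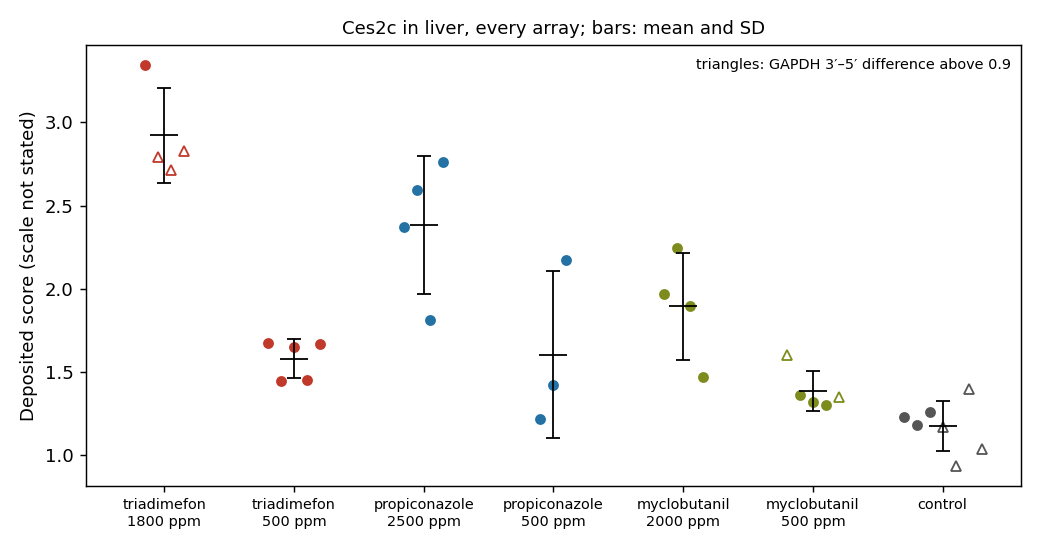
Deposited score of Ces2c (vertical axis, scale not stated) on every array, by group; each point is 1 animal, horizontal bars are means and whiskers 1 SD, and open triangles are arrays with a GAPDH 3′–5′ difference above 0.9. The 4 animals at triadimefon 1800 ppm lie between 2.72 and 3.35, above all 7 controls, which lie between 0.936 and 1.40.

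At propiconazole 2500 ppm the Ces2c scores were 2.37, 2.60, 1.81 and 2.76, a mean of 2.39 ± 0.415 (SD, n = 4). All 4 again lay above the highest control, replicate 3 by the smallest margin (0.767% of all probe sets lay wholly above). Ces2c rose by 1.21 ± 0.164 (SE; 95% interval 0.877 to 1.55; limma adjusted p = 0.000863), the rise of rank 6 and the p of rank 2 among all probe sets.

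At myclobutanil 2000 ppm the scores of replicates 2 to 5 were 1.97, 2.25, 1.90 and 1.47, a mean of 1.90 ± 0.322 (SD, n = 4). These 4 animals also lay above all controls, though the lowest of them was close to the highest control. The difference of 0.723 ± 0.164 (SE; 95% interval 0.387 to 1.06) did not pass the threshold of 0.05 (limma adjusted p = 0.0580), and it passed under 5 of 21 alternative settings (among them without control 1 and without control 3), with adjusted p between 0.0206 and 0.441 over all of them. In this comparison 0.332% of all probe sets lay wholly above the controls.

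At 500 ppm no compound gave a difference in Ces2c that passed. Triadimefon scores were 1.68, 1.45, 1.65, 1.45 and 1.67, each above the highest control (0.132% of all probe sets did so in this comparison). Their mean of 1.58 ± 0.118 (SD, n = 5) differed from that of controls by 0.406 ± 0.153 (SE; 95% interval 0.0927 to 0.720; limma adjusted p = 0.102). Propiconazole scores of replicates 1, 2 and 5 were 1.22, 1.42 and 2.17, so 2 of 3 lay above all controls and 1 animal made most of the group's spread. Their difference from controls was 0.430 ± 0.180 (SE; 95% interval 0.0609 to 0.800; limma adjusted p = 0.536), and 0.146 without replicate 5. Myclobutanil scores were 1.60, 1.36, 1.32, 1.30 and 1.35, with 1 of 5 above all controls and a difference of 0.214 ± 0.153 (SE; 95% interval -0.100 to 0.527; limma adjusted p = 0.9996).

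The Ces2c means ordered the groups as triadimefon 1800 ppm, propiconazole 2500 ppm, myclobutanil 2000 ppm, propiconazole 500 ppm, triadimefon 500 ppm, myclobutanil 500 ppm and controls. In all 6 neighbouring pairs of that order the animals of the groups overlapped. The high levels differ between compounds, so those means are given side by side without a comparison.

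Between the levels of a compound, Ces2c was higher by 1.34 ± 0.175 at triadimefon 1800 ppm than at triadimefon 500 ppm (SE; 95% interval 0.984 to 1.70; limma adjusted p = 0.000103). The groups did not overlap, which held in this direction for 21.8% of all probe sets. At propiconazole 2500 ppm the difference from propiconazole 500 ppm was 0.783 ± 0.199 (SE; 95% interval 0.374 to 1.19), and at myclobutanil 2000 ppm that from myclobutanil 500 ppm was 0.509 ± 0.175 (SE; 95% interval 0.150 to 0.868). Neither passed (limma adjusted p of 1.0 and 0.447), and 0 probe sets passed in either comparison, while 365 and 3404 had an unadjusted p under 0.05.

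The 3 compounds share a triazole ring; triadimefon is a ketone, propiconazole a cyclic ketal and myclobutanil a nitrile. At the shared level of 500 ppm the 3 pairs of compounds were compared for Ces2c, and none of the differences passed limma's test. Triadimefon minus myclobutanil was 0.193 (95% interval -0.146 to 0.531; adjusted p = 0.469), triadimefon minus propiconazole -0.0241 (95% interval -0.415 to 0.367; adjusted p = 0.9997) and myclobutanil minus propiconazole -0.217 (95% interval -0.608 to 0.174; adjusted p = 0.855). These intervals leave room for differences in either direction.

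Of the 7 members, 1 rose and 0 fell at triadimefon 1800 ppm, where 1.04% of all probe sets rose and 1.17% were called in either direction. At propiconazole 2500 ppm, again 1 rose and 0 fell, where 0.132% of all probe sets rose and 0.254% were called in either direction. The member called was Ces2c both times; the comparisons share their controls. At myclobutanil 2000 ppm, where 0.00966% of probe sets rose and 0.0644% were called in either direction, 0 members passed limma's adjusted threshold and 3 had an unadjusted p under 0.05, as did 24.2% of all probe sets. At 500 ppm of triadimefon, propiconazole and myclobutanil, where 0% of probe sets rose (0.00966% called in either direction with triadimefon and 0% with the other compounds), 0 members passed, and 2, 1 and 0 in that order had an unadjusted p under 0.05, as did 29.3%, 9.23% and 4.13% of all probe sets. The median member difference was 0.250 at triadimefon 1800 ppm, where that of all probe sets was 0.0185. It was -0.0591 at propiconazole 2500 ppm (all probe sets -0.0334) and -0.159 at myclobutanil 2000 ppm (all probe sets -0.0364). The 11 measured hepatocyte markers had medians of larger size in the same comparisons, 0.326, -0.230 and -0.402 in that order, so such shifts were not particular to the members.

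**Figure D2:**
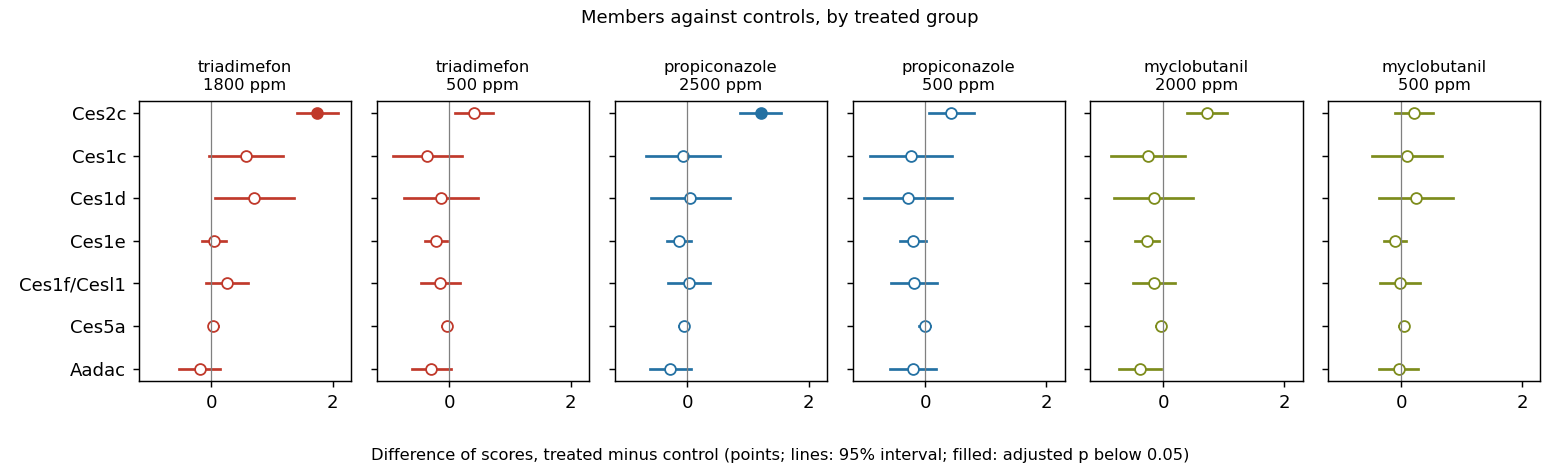
Difference of scores from the controls (horizontal axis, treated minus control) for the 7 members in each treated group; points are limma estimates, lines are 95% intervals and filled points have an adjusted p below 0.05. Ces2c at triadimefon 1800 ppm (1.75) and propiconazole 2500 ppm (1.21) are the filled points.

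The Ces1 genes of the chromosome 19 cluster did not pass in any comparison with controls. Ces1d encodes an enzyme that in the mouse acts as a triacylglycerol hydrolase on stored liver lipid. Its scores were 4.93, 4.23, 4.47 and 4.30 at triadimefon 1800 ppm, against 3.11, 3.58, 3.26, 4.64, 3.98, 3.70 and 4.16 in controls. Replicate 1 alone lay above every control, and the other 3 lay within the control range. The difference of 0.709 ± 0.319 (SE; 95% interval 0.0542 to 1.36) did not pass (limma adjusted p = 0.402). The group means of Ces1d ran from 3.49 ± 0.178 at propiconazole 500 ppm (SD, n = 3) to 4.48 ± 0.315 at triadimefon 1800 ppm (SD, n = 4), and all 6 neighbouring pairs in their order overlapped.

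Ces1c encodes a carboxylesterase that in the mouse is secreted into plasma. Its scores were 5.65, 4.47, 4.97 and 4.36 at triadimefon 1800 ppm, against 4.03, 4.35, 4.41, 4.92, 4.12, 3.84 and 4.43 in controls. Replicates 1 and 3 lay above every control, and the difference of 0.566 ± 0.297 (SE) did not pass (limma adjusted p = 0.523). The single highest Ces1c score of the series, 5.97, came from myclobutanil 500 ppm replicate 1, the array with the largest 3′–5′ difference (2.45). Scores over all its probe sets also had the widest spread of the series, an SD of 1.02, where the next widest was 0.919. The same array was the highest of all for Ces1d (5.72), the Ces1f/Cesl1 probe set (3.68) and Aadac (3.16). The second Ces1c probe set was dim, at percentile 18.47 of all probe sets, and is not used as the main value. It scored -0.201 to -0.102 at myclobutanil 2000 ppm and -0.208 to -0.114 at propiconazole 2500 ppm, against -0.310 to -0.264 in controls. Neither treated group overlapped the controls, but the differences of 0.123 ± 0.0321 and 0.118 ± 0.0321 (SE) did not pass (limma adjusted p of 0.0773 and 0.0868). In the same comparisons 0.332% and 0.767% of all probe sets lay wholly above the controls.

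Ces1e is known in the mouse as egasyn, which holds β-glucuronidase in the endoplasmic reticulum. It scored 2.52, 2.09, 2.11 and 2.16 at triadimefon 1800 ppm, within 0.0347 ± 0.0969 (SE) of controls on average (limma adjusted p = 0.950). At myclobutanil 2000 ppm its scores were 1.78, 1.86, 1.94 and 2.09, against 1.98, 2.34, 2.04, 2.49, 2.12, 2.20 and 2.13 in controls. There, 3 of 4 animals lay below every control, and the difference of -0.267 ± 0.0969 (SE; 95% interval -0.465 to -0.0676) did not pass (limma adjusted p = 0.122). At triadimefon 500 ppm 3 of 5 animals lay below every control, with a difference of -0.219 ± 0.0906 (SE; limma adjusted p = 0.122). The Ces1f/Cesl1 probe set scored 3.37, 2.87, 2.94 and 2.76 at triadimefon 1800 ppm, against 2.56 to 2.98 in controls (median 2.72), a difference of 0.250 ± 0.169 (SE; limma adjusted p = 0.673).

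Ces5a is the counterpart of cauxin, an esterase of cat urine. Its probe set stood at percentile 33.75 of all probe sets, with scores from -0.246 to 0.000225 over the 32 arrays. Its differences from controls ran between -0.0591 and 0.0415 in the 6 treated groups, and none passed. Whether this probe set carries liver signal cannot be read from these scores.

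**Figure D3:**
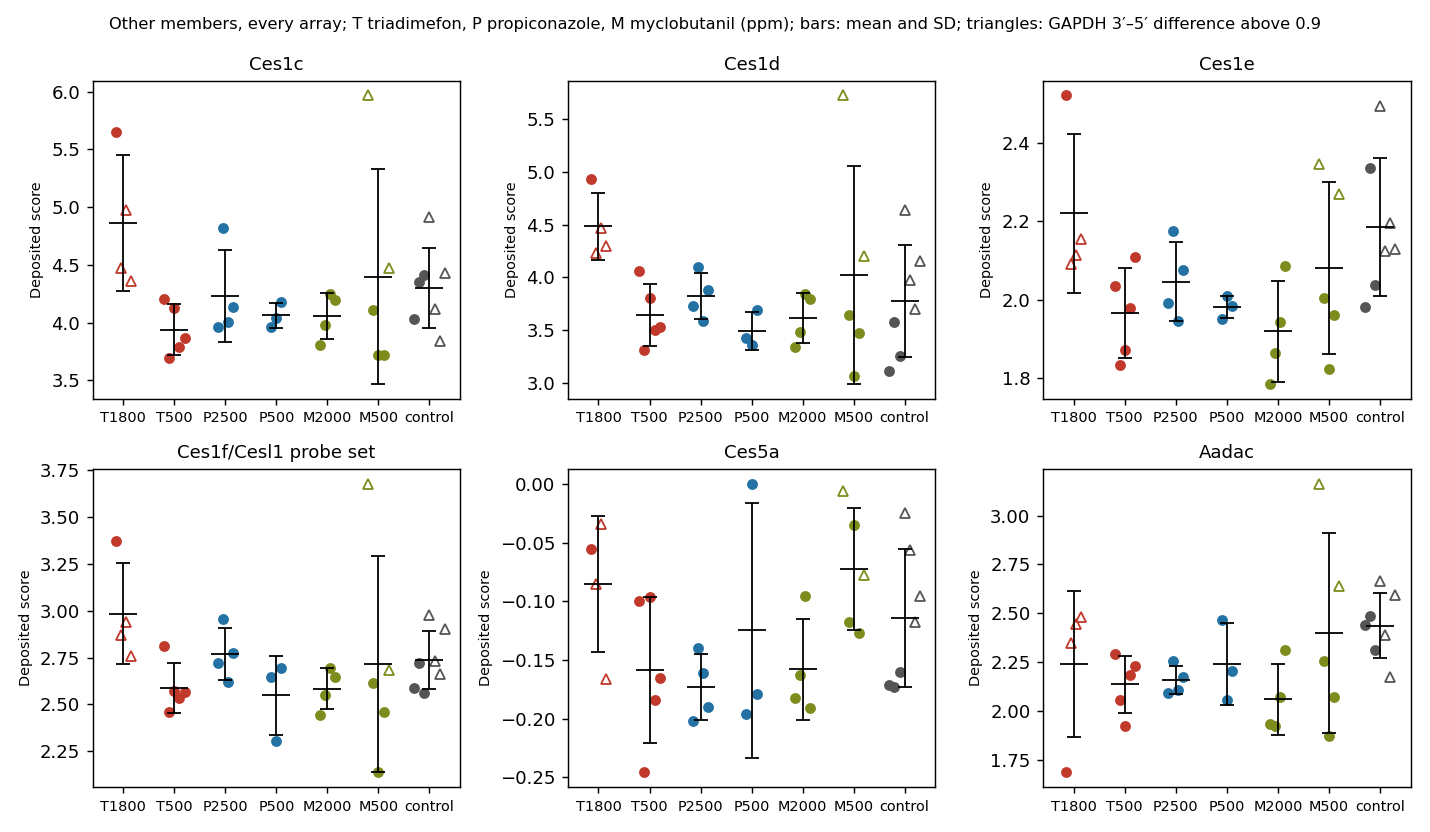
Deposited scores (vertical axes, scale not stated) of the 6 other members on every array by group; points, bars, whiskers and triangles are as in the plot of Ces2c, T is triadimefon, P propiconazole and M myclobutanil with the level in ppm. The treated and control animals overlap in all 6 panels, and myclobutanil 500 ppm replicate 1 is the highest point for Ces1c (5.97), Ces1d (5.72), the Ces1f/Cesl1 probe set (3.68) and Aadac (3.16).

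Aadac had lower means than controls in all 6 treated groups, which share the same controls, and none of the differences passed. Under some alternative settings the difference was positive, up to 0.0953 at myclobutanil 500 ppm, 0.0389 at triadimefon 1800 ppm and 0.0288 at propiconazole 500 ppm. In the other treated groups it stayed negative under every alternative. Over the 32 arrays Aadac correlated with the 3′–5′ difference (Pearson r = 0.659). This was not particular to Aadac, as r ran from 0.573 (Ces5a) to 0.723 (Ces1d) in the other members except Ces2c (-0.00479). Within the 7 controls alone, r was 0.516 for Aadac. What part RNA quality had in the lower Aadac means was not tested. The Aadac scores at myclobutanil 2000 ppm were 1.93, 1.92, 2.07 and 2.31, against 2.44, 2.48, 2.31, 2.67, 2.39, 2.17 and 2.60 in controls. Of these, 3 of 4 lay below every control, and the difference was -0.378 ± 0.168 (SE; 95% interval -0.722 to -0.0335; limma adjusted p = 0.174). At triadimefon 1800 ppm the scores were 1.69, 2.35, 2.45 and 2.48. Replicate 1 was the lowest Aadac score of the series, while the other 3 lay inside the control range, and the difference of -0.196 ± 0.168 (SE) did not pass (limma adjusted p = 0.769). The means ran from 2.06 ± 0.180 at myclobutanil 2000 ppm (SD, n = 4) to 2.44 ± 0.167 in controls (SD, n = 7), and all 6 neighbouring pairs in the order of the groups overlapped.

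Between triadimefon 1800 ppm and triadimefon 500 ppm, 2 of 7 members were higher, Ces2c and Ces1c, and 0 were lower. In this comparison 24.8% of all probe sets were called and 22.3% were higher, so 2 of 7 is a share near the background. Ces1c scored 5.65, 4.47, 4.97 and 4.36 at 1800 ppm, against 4.204, 3.70, 4.13, 3.79 and 3.87 at 500 ppm. The groups did not overlap, as for 21.8% of all probe sets in this direction, and the difference was 0.928 ± 0.318 (SE; limma adjusted p = 0.0359). With quantile normalisation it was 0.195 ± 0.0695 (SE; limma adjusted p = 0.0691). It passed under 11 of 20 alternative settings, not without triadimefon 500 ppm replicate 2, 4 or 5 or triadimefon 1800 ppm replicate 1 or 3, and in a fit that also held the 3′–5′ difference it was 0.437 ± 0.332 (SE; limma adjusted p = 0.596). Ces1d also did not overlap (0.841 ± 0.342 SE; limma adjusted p = 0.0682). The 3′–5′ difference itself did not overlap between these groups. Neither did the SD of all scores on an array, 0.816 to 0.919 at 1800 ppm against 0.725 to 0.778 at 500 ppm. The summed score of the hepatocyte markers ran from 48.9 to 62.2 at 1800 ppm, against 43.8 to 48.9 at 500 ppm, and the part of this sum was not tested. Of the other marker lists, 6 of 8 Kupffer, 5 of 10 stellate and endothelial, 2 of 5 biliary and 0 of 11 hepatocyte markers passed as higher at 1800 ppm; their part was not tested either.

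RNA quality was set against the members within the 7 controls, where no treatment differs, by a two-sided exact permutation test adjusted over the 7 members. For Ces2c Pearson's r with the 3′–5′ difference was -0.580 (exact permutation p = 0.168, adjusted 0.294) and Spearman's rho -0.679 (exact permutation p = 0.110, adjusted 0.192). For Ces1d r was 0.880 (exact permutation p = 0.00952, adjusted 0.0507) and rho 0.929 (exact permutation p = 0.00675, adjusted 0.0236). For the Ces1f/Cesl1 probe set r was 0.872 (exact permutation p = 0.0145, adjusted 0.0507) and rho 0.929 (exact permutation p = 0.00675, adjusted 0.0236). Without the 2 controls farthest from the median 3′–5′ difference, r was -0.439 for Ces2c, 0.923 for Ces1d and 0.782 for the Ces1f/Cesl1 probe set. Thus the rank correlations of Ces1d and the Ces1f/Cesl1 probe set passed the adjusted threshold, and no Pearson correlation did. The r of the other members was 0.779 for Ces5a, 0.516 for Aadac, 0.462 for Ces1e and 0.317 for Ces1c, with adjusted exact permutation p between 0.112 and 0.502 (0.155 to 0.354 for rho). Of the controls, 4 are numbered below and 3 above 3000, too few in each series for a value of its own. With the 3′–5′ difference added to the fit, the Ces2c difference of triadimefon 1800 ppm from controls was 1.75 ± 0.167 (SE; limma adjusted p = 4.90e-07) and that of propiconazole 2500 ppm was 1.20 ± 0.183 (SE; limma adjusted p = 0.00283). Among animals numbered above 3000, the 3 at triadimefon 1800 ppm differed from the 3 controls by 1.66 ± 0.119 in Ces2c (SE; limma adjusted p = 0.0484). Among those numbered below 3000, the single animal at triadimefon 1800 ppm differed from the 4 controls by 2.14 ± 0.294 (SE; limma adjusted p = 9.30e-05), with its spread taken from the other groups. All animals at propiconazole 2500 ppm are numbered below 3000, and against the 4 controls of that series the Ces2c difference was 1.18 ± 0.186 (SE; limma adjusted p = 0.0173).

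**Figure D4:**
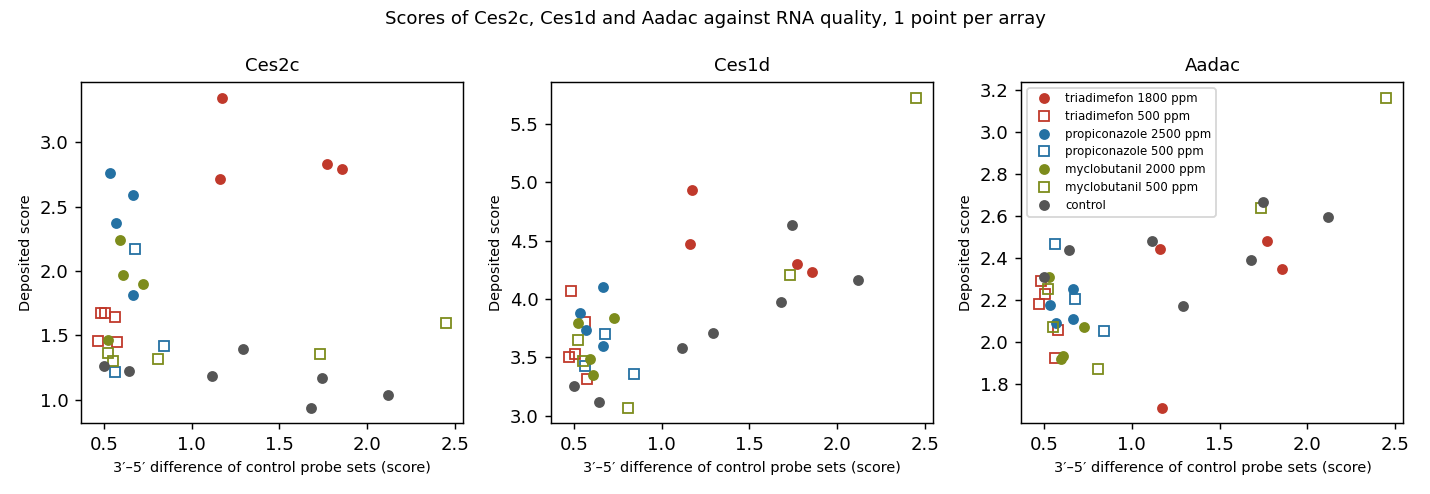
Deposited scores (vertical axes) of Ces2c, Ces1d and Aadac against the 3′–5′ difference of the GAPDH and β-actin control probe sets (horizontal axes, in score units), with 1 point per array. Filled circles are high levels and controls, open squares 500 ppm groups; the array with the largest 3′–5′ difference (2.45) has the highest Ces1d (5.72) and Aadac (3.16) scores, and the 4 animals at triadimefon 1800 ppm, with Ces2c scores of 2.72 to 3.35, lie at differences between 1.16 and 1.86.

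Correlations between genes were taken over the 32 arrays; they pool groups that differ, share processing and RNA quality, and are descriptions only. The correlation was 0.929 between the Ces1f/Cesl1 probe set and Ces1d, 0.913 between it and Ces1c and 0.898 between Ces1d and Ces1c, while Ces2c reached at most 0.373 with any other member and -0.300 with Aadac. The genes whose scores were most like those of Ces2c, among 14211 genes over the 32 arrays, were Abcc3, an organic anion exporter (r = 0.926), Aldh1a1, a retinaldehyde dehydrogenase (r = 0.910), Nipal2 (r = 0.903), Scpep1, a serine carboxypeptidase (r = 0.880), and Fbxo27 (r = 0.867). Ces1c was most like Hrg, a plasma glycoprotein (r = 0.980), Cyp2d2 (r = 0.978) and complement C3 (r = 0.976). Ces1d was most like Pros1 (r = 0.954), Serpina10 (r = 0.950) and Cyp3a2 (r = 0.945), and the Ces1f/Cesl1 probe set was most like Pecr (r = 0.946), Pros1 (r = 0.933) and Rpl7a (r = 0.931). Ces1e was most like Slc25a20 (r = 0.913), Ube3c (r = 0.909) and Ndufa9 (r = 0.906). Aadac was most like Lypla1, an acyl-protein thioesterase (r = 0.938), Ptprd (r = 0.926) and Paip1 (r = 0.925). Ces5a was most like Ctxn2 (r = 0.838), Cd8a (r = 0.824) and Fosb (r = 0.817).

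Among 13 measured other arylacetamide and neutral ester hydrolases, 1 rose and 0 fell at triadimefon 1800 ppm and likewise at propiconazole 2500 ppm, and none passed in the other 4 comparisons with controls. Of all probe sets, 1.04% rose at triadimefon 1800 ppm and 0.132% at propiconazole 2500 ppm. The hydrolase that rose both times was Nceh1, neutral cholesterol ester hydrolase, a homologue of Aadac. It scored 0.807, 0.849, 0.635 and 0.807 at triadimefon 1800 ppm and 0.842, 0.498, 0.734 and 0.532 at propiconazole 2500 ppm, against 0.219, 0.415, 0.211, 0.342, 0.415, 0.122 and 0.231 in controls. All animals of both treated groups lay above every control, as was so for 1.18% and 0.767% of all probe sets in that order. The rise was 0.495 ± 0.0726 at triadimefon 1800 ppm (SE; limma adjusted p = 0.00024) and 0.373 ± 0.0726 at propiconazole 2500 ppm (SE; limma adjusted p = 0.0221), which passed under 21 of 22 and 11 of 21 alternative settings. Without control 6 or without propiconazole 2500 ppm replicate 1, 3 or 4 the second of these did not pass, and with only the animals numbered above 3000 the first was 0.508 ± 0.0909 (SE; limma adjusted p = 0.265). At myclobutanil 2000 ppm the 4 animals (0.430 to 0.6995) also lay above every control, as was so for 0.332% of all probe sets. The Nceh1 difference there was 0.286 ± 0.0726 (SE; limma adjusted p = 0.0755). The median difference of the 13 genes from controls was 0.240 at triadimefon 1800 ppm and -0.0667 at propiconazole 2500 ppm, beside medians over all probe sets of 0.0185 and -0.0334.

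**Figure D5:**
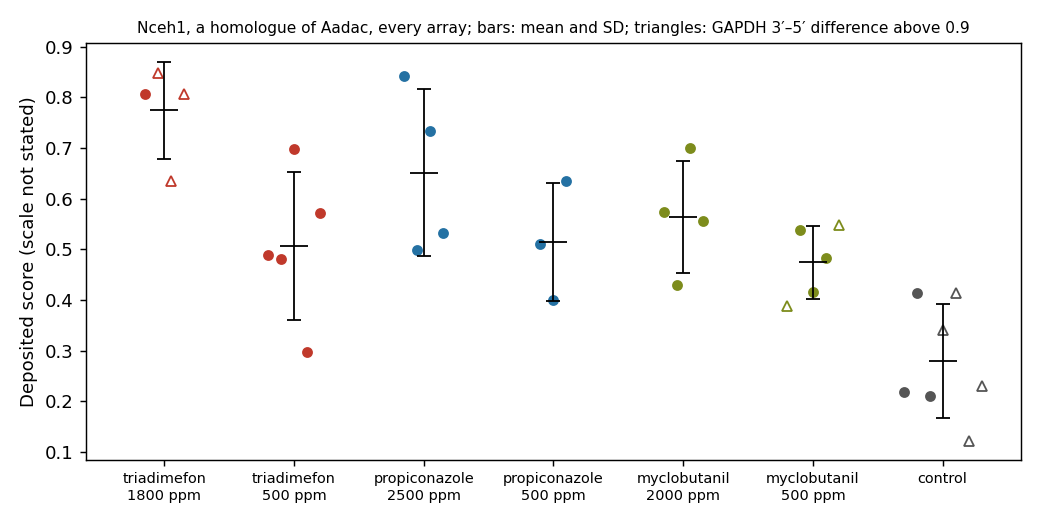
Deposited score of Nceh1 (vertical axis, scale not stated) on every array by group; points, bars, whiskers and triangles are as in the plot of Ces2c. The animals at triadimefon 1800 ppm (0.635 to 0.849) and propiconazole 2500 ppm (0.498 to 0.842) lie above the controls (0.122 to 0.415).

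None of 13 lipases of acylglycerols and cholesteryl esters, 7 genes of VLDL assembly and 6 genes of β-glucuronidase and retention in the endoplasmic reticulum passed in a comparison with controls. The median differences at triadimefon 1800 ppm were 0.0669, 0.139 and 0.145 for these lists, and at propiconazole 2500 ppm they were -0.0794, -0.244 and -0.278. Gusb, the β-glucuronidase that egasyn binds in the mouse, differed from controls by 0.229 ± 0.112 at triadimefon 1800 ppm (SE; limma adjusted p = 0.465). Of 8 regulators of esterase genes, 1 rose, at propiconazole 2500 ppm (0.132% of all probe sets rose there). This was Ahr, the receptor for dioxin-like ligands, which scored 0.405, 0.416, 0.610 and 0.431 there, against -0.190 to 0.226 in controls (median 0.0300). Its rise was 0.470 ± 0.104 (SE; limma adjusted p = 0.0452), it passed under 8 of 21 alternative settings (not without controls 4, 5, 6 or 7 or any 1 of the 4 treated animals), and a second Ahr probe set differed by -0.0295 ± 0.0243 (SE; limma adjusted p = 0.485). CAR (Nr1i3) differed from controls by 0.169 ± 0.121 at triadimefon 1800 ppm (SE; limma adjusted p = 0.699) and by 0.398 ± 0.121 at propiconazole 2500 ppm (SE; limma adjusted p = 0.113). PXR (Nr1i2) differed by 0.00295 ± 0.124 and 0.331 ± 0.124 in the same comparisons (SE; limma adjusted p of 0.998 and 0.166).

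At triadimefon 1800 ppm, the group in which Ces2c was highest, 0 of 8 Kupffer cell markers, 1 of 10 stellate and endothelial markers and 1 of 5 biliary markers rose against controls. Of all probe sets, 1.04% rose in this comparison. The summed score of the Kupffer cell markers ran from 10.4 to 14.0 at triadimefon 1800 ppm, against 7.22 to 11.9 in controls, so the groups overlapped. Of these 8, 7 had an unadjusted p under 0.05, as did 10.8% of all probe sets. The sum of the stellate and endothelial markers ran from 11.8 to 13.1, against 8.93 to 11.1 in controls, and 1 of them, Col1a2, passed (difference 0.313 ± 0.0782 SE; limma adjusted p = 0.0410; 10 of 22 alternative settings), while a second Col1a2 probe set did not (0.187 ± 0.0709 SE; limma adjusted p = 0.265). The sum of the biliary markers ran from 0.643 to 1.18, against 0.0634 to 0.266 in controls; their median difference was 0.0316, and Epcam alone passed (difference 0.720 ± 0.116 SE; limma adjusted p = 0.000791; 19 of 22 alternative settings). Their part in the Ces2c and Nceh1 values was not tested. At propiconazole 2500 ppm, where both genes also rose, the Kupffer sum ran from 7.53 to 10.1, inside the control range, the stellate and endothelial sum from 7.69 to 10.7, reaching below it, and the biliary sum from 0.160 to 0.674, reaching above it. Of 4 measured intestine markers, 0 passed in any comparison with controls. Their sum ran from 1.30 to 2.21 at triadimefon 1800 ppm, against -0.00822 to 2.95 in controls. It mostly follows Cdh17 (mean score 2.16, percentile 96.07), since Vil1, Cdx2 and Fabp2 had mean scores of -0.161, -0.187 and -0.103. The sum is therefore no measure of intestinal cells.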

How the data were processed

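Liver RNA of 35 rats is listed in the series. The deposited scores, 1 per probe set and array, cover 32 of them; 3 of the columns are empty (myclobutanil 2000 ppm replicate 1, propiconazole 500 ppm replicates 3 and 4), for animals that the submitters left out of their final analysis per the labels. The labels do not say how the authors made the deposited scores, nor their scale, log base and centring; the scores were used unchanged. Leaving out 57 control probe sets, 31042 were tested. The platform annotation gave 1 symbol to 20826 of these, several to 436 and none to 9780; 20758 were found in RefSeq's rat gene list by Entrez identifier, with 0 symbols updated.

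A single linear model over the 7 groups was fitted with limma 3.58.1 (R 4.3.3; data.table, version 1.17.8) and eBayes at its defaults; residual degrees of freedom were 25 and prior ones 1.995. The 12 comparisons were tested two-sided and adjusted by the Benjamini-Hochberg method over all probe sets of a comparison, with a threshold of 0.05. Precision is limited by the number of arrays. Tables were made with pandas 2.3.3 and promoter alignments with Biopython 1.88.

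The members, gene lists and tests were chosen with earlier results of these data known. Every member is named. The genes most like a member are the 3 (5 for Ces2c) of largest Pearson correlation, among genes with 1 symbol by their highest-mean probe set. Of the related lists, genes past the threshold against controls are named; Gusb, Nr1i2 and Nr1i3 were named after their values were seen. Alternatives were quantile normalisation, equal median and SD of arrays, removal of the dimmest 40% of probe sets, trend and robust moderation, a fit of only the arrays of 2 groups, the animal number series as a block or alone, the 3′–5′ difference as a covariate, removal of arrays with a GAPDH difference above 0.9, a replicate block, each replicate left out, and the mean of a gene's probe sets.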

Additional observations from a re-analysis of the deposited data

Results flagged for a closer look

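A sample far from the others of its group was looked for with Dixon's 95% critical value in 42 sets of scores. Each set held 1 member in 1 group of 4 to 7 arrays, so sets of the same group share their arrays. In these sets 3 such samples were found, and chance flags about 1 set in 20. Ces2c at myclobutanil 500 ppm had a score of 1.599 in replicate 1, against 1.30 to 1.36 in the other 4 animals. That array has the largest 3′–5′ difference of the series, 2.45, and the largest SD of its scores, 1.02. Aadac at triadimefon 1800 ppm had a score of 1.686 in replicate 1, against 2.35 to 2.48 in the other 3. Ces1e at triadimefon 1800 ppm had a score of 2.521 in replicate 1, against 2.09 to 2.16 in the other 3. Replicate 1 is also the one animal of that group numbered below 3000 and the one with a GAPDH 3′–5′ difference under 0.9 (0.729); the part of either in these scores was not tested.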

How the results depend on the processing

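Ces2c kept its direction and passed under all 22 alternatives for triadimefon 1800 ppm against controls (difference 1.53 to 2.14, highest limma adjusted p = 0.0484), all 21 for propiconazole 2500 ppm against controls (1.09 to 1.40, highest adjusted p = 0.0444) and all 19 for triadimefon 1800 ppm against 500 ppm (0.965 to 1.77). The number of members past the threshold at myclobutanil 2000 ppm against controls was 0, where 20 of the 31042 probe sets passed. It was 1 (Ces2c) with quantile normalisation (79 probe sets), with equal median and SD (44), and with trend and robust moderation (120). Leaving out single replicates gave 0 to 1, with 1 when control 1 (332 probe sets) or control 3 (3013) was left out. At triadimefon 1800 ppm against controls the number of members was 1, where 362 of all probe sets passed. A further setting left out the arrays of high GAPDH difference, and no count of members is given for it. That setting leaves only triadimefon 1800 ppm replicate 1, against controls 1 to 3, and it assumes that this lone animal varies like the other groups; Ces1d differed by 1.61, Ces1c by 1.39, the Ces1f/Cesl1 probe set by 0.747, Ces1e by 0.402, Aadac by -0.725 and Ces2c by 2.13. Among the 3 animals of each group numbered above 3000, Ces1d differed by 0.389, Ces1c by 0.474 and the Ces1f/Cesl1 probe set by 0.0901. Ces1e differed by -0.0299 and Aadac by 0.0389 among the same animals. None of these differences passed, while that of Ces2c did. Against triadimefon 500 ppm the number was 2; it was 1 with quantile normalisation, equal median and SD, the animal number series as a block or the 3′–5′ covariate, 4 with only the arrays of both groups, and 6 without the arrays of high GAPDH difference, while leaving out single replicates gave 1 to 2 (1 without triadimefon 500 ppm replicates 2, 4 or 5 or triadimefon 1800 ppm replicates 1 or 3). In that comparison the Aadac difference was 0.105, and it reversed to -0.45 (limma adjusted p = 0.0442) without the arrays of high GAPDH difference, which again leaves the same single animal at triadimefon 1800 ppm, with its spread assumed from the other groups. A further 51 values changed sign while past the threshold under neither setting. Between the triadimefon levels 7690 of the 31042 probe sets passed in the main fit, and 7888 with only the arrays of both groups. With quantile normalisation 3009 passed, and with equal median and SD 5475. The animal number series as a block gave 763 and the 3′–5′ covariate 88. Leaving out single replicates gave 4442 to 7579. The count of 6 members rests on 1 animal at triadimefon 1800 ppm, so no share is set beside it.

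Replicate numbers do not pair the animals: same-numbered arrays of different groups deviated together with a median correlation of -0.0101 (76 pairs, -0.666 to 0.596), against 0.00705 for differently numbered ones. With the replicate block, Ces2c differed from controls by 1.77 ± 0.194 (SE) at triadimefon 1800 ppm, by 1.23 ± 0.194 at propiconazole 2500 ppm and by 0.759 ± 0.194 at myclobutanil 2000 ppm, and 1, 1 and 0 members passed. Of the 31042 probe sets, 506, 10 and 0 passed in these comparisons. Between the triadimefon levels 3 members and 8386 of all probe sets passed with the block. The probe set scores have no stated scale and no signal over background, so their depth cannot be given.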
